A study of Mus musculus with 2 samples.

Results

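The border macrophages described here were 1041 cell barcodes, 406 from the Foxq1flox/flox library and 635 from the Foxq1iECKO library, of 27041 barcodes that passed the quality limits. A barcode was kept with at least 1000 UMIs (unique molecular identifiers, each standing for 1 captured transcript), at least 500 genes and at most 20% mitochondrial UMIs. It counted as a border macrophage with a UMI for at least 3 of the 6 pan-macrophage genes Csf1r, C1qa, C1qb, C1qc, Tyrobp and Fcer1g, and for at least 2 of the 3 border genes F13a1, Mrc1 and Lyve1. It could hold at most 1 of the microglia genes P2ry12, Siglech and Gpr34, and at most 2 of the 4 interferon-response genes Rsad2, Ifit1, Ifit2 and Ifit3. The cells were thus chosen by the measured UMIs of those 16 genes, and the levels of these genes among the members are given only as description. The fourth marker named for these cells, Msr1, was not used by the rule.

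Border-associated macrophages are the resident macrophages of the meninges, the choroid plexus and the spaces around brain vessels. They share a yolk sac ancestry with microglia, the macrophages of the brain tissue itself, and both depend on signalling through the receptor Csf1r. Border macrophages are known for scavenger and lectin receptors that take up proteins, lipids and debris, among them the mannose receptor Mrc1 and the hyaluronan receptor Lyve1, and for contact with blood and lymph vessels.

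The study asked how endothelial Foxq1, a forkhead transcription factor, bears on brain vessel growth and barrier formation. Brains of mouse embryos at E12.5 of 2 genotypes were digested, cells were enriched on CD31 beads (CD31 is Pecam1, an endothelial surface protein), and 1 library per genotype was sequenced from the 3′ end. Foxq1flox/flox embryos carried floxed Foxq1 alleles and were the control. Foxq1iECKO is the genotype name of the knockout. The sources used here do not state its Cre driver, its induction, the deleted part of the gene or the number and sex of embryos per library, and both samples are labelled as endothelial cells. Both groups share the age, the digestion and the CD31 selection.

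With 1 library per genotype no test between genotypes was possible. Levels are a gene's UMIs per 1000000 UMIs (CPM), after adding up all cells of a class within 1 library. Every interval is a 95% counting interval, exact for the ratio or share it follows, and covers counting error only. A gene is called higher or lower between libraries when its ratio is at least 1.5 and the interval of the ratio excludes 1, among genes at 20 CPM or more in at least 1 library. This is a rule of size and not a test, and the difference between embryos of 1 genotype is unknown.

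The members were deep enough for such sums. Their median was 5634 UMIs and 2468 genes in the Foxq1flox/flox library and 5169 UMIs and 2297 genes in the Foxq1iECKO library, and they summed to 2562900 and 3696440 UMIs. The libraries shared 270 barcode sequences; 2 and 10 members carried such a barcode, and none was a member in both. Cells with markers of a second type were common: 79 of 406 and 136 of 635 members held at least 4 marker genes of 1 of 11 other cell classes, and 32 and 43 held at least 3 endothelial genes. A doublet caller marked 9.11% and 8.35% of members, against 3.83% and 3.94% of all kept barcodes. These cells fit the rule and were kept; counts and named genes whose call ended without them are given with both values. UMIs of Xist and of the Y-linked genes Ddx3y, Eif2s3y and Uty were present in members of both libraries, with Xist at 802 and 528 CPM, Eif2s3y at 29.7 and 56.3 CPM and Uty at 15.6 and 31.4 CPM, so UMIs typical of both sexes were in each library, at unlike levels. The part of embryo sex in the differences between libraries was not tested.

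Promoter sequence is shown for 2 sets of genes around which the results are arranged. They are interferon genes that limited the class, and the border genes Mrc1 and F13a1 of the rule with Pf4, a marker outside it. The first carry, in capitals, the core of an interferon-stimulated response element (GAAA, any 2 bases, GAAA, on either strand), the site read by interferon-activated STAT and IRF complexes. The sequences are the bases upstream of the RefSeq start in GRCm38.p6, written 5′ to 3′ in gene orientation and ended where the GENCODE gene begins.
Rsad2 chr12:26456453-26456702 (minus strand): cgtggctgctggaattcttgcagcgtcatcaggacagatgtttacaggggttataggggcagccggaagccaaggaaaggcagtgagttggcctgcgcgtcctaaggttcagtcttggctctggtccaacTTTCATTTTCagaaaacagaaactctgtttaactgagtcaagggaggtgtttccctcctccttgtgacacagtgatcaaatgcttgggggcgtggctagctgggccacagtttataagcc
Ifit1 chr19:34640639-34640870 (plus strand): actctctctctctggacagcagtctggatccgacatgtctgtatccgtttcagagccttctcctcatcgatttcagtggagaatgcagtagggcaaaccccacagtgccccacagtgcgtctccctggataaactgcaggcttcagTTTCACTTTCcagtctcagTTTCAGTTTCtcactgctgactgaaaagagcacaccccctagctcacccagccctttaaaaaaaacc
Ifit3 chr19:34583279-34583528 (plus strand): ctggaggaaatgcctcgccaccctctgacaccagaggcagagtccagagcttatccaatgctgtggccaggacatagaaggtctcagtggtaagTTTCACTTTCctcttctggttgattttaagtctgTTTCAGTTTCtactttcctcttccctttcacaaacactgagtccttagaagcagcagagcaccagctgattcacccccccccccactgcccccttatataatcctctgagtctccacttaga
Rsad2 encodes the antiviral enzyme viperin, and Ifit1 and Ifit3 encode proteins that bind foreign RNA or its complexes. The core stood in the 250 upstream bases of 936 of 27025 genes with a window (3.46%), of 3 of the 4 interferon genes of the rule (not Ifit2), and of 14 of 30 genes of a wider interferon-response list with a window. The second set carries in capitals the core GAGGAAG (either strand) that is bound by PU.1, the transcription factor encoded by Spi1 that macrophages require.
Mrc1 chr2:14229164-14229391 (plus strand): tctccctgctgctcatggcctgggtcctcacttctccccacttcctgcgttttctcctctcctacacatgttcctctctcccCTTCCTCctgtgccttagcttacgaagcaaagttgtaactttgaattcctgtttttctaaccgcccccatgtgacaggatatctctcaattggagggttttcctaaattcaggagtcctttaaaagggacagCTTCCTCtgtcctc
F13a1 chr13:37050245-37050494 (minus strand): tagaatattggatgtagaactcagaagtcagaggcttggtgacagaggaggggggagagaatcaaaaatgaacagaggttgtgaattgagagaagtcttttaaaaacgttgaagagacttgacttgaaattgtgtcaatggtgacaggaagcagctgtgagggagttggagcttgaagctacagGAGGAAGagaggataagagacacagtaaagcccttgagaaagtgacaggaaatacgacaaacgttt
Pf4 chr5:90772185-90772434 (plus strand): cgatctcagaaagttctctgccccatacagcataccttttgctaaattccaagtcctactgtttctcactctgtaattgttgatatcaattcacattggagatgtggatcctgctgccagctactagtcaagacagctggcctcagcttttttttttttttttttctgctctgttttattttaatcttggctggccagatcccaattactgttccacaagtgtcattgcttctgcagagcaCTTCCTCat
Mrc1 held the PU.1 core at 2 places and F13a1 and Pf4 at 1 each. Of all genes with a window, 12.004% held this core, against 3 of 21 with a window among the other border macrophage markers (Pf4, Cbr2 and Igf1). The MAF core TGCTGA stood in 18.0% of all genes and in 7 of those 21, among them Dab2, Ednrb, Folr2, Stab1 and Cd36, and in neither Mrc1 nor F13a1. A match is a description of these letters and not a bound site. In mm10 coordinates of GENCODE vM21, F13a1 lies at chr13:36867178-37050244 on the minus strand, Mrc1 at chr2:14229392-14332057 on the plus strand, Lyve1 at chr7:110850607-110863239 on the minus strand and Msr1 at chr8:39581685-39642673 on the minus strand. All 4 are protein-coding.

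Foxq1, the targeted gene, was rare in these cells. It gave 84 UMIs in 33 members of the Foxq1flox/flox library (32.8 CPM) and 78 UMIs in 30 members of the Foxq1iECKO library (21.1 CPM), a log2 ratio of -0.64 (interval -1.10 to -0.17). After each cell was thinned to 1000 UMIs, 1.48% and 1.42% of members held a Foxq1 UMI, against 1.75% and 1.63% of cells gated as neurons, whose median depth was 3514 and 3704 UMIs, and 0.773% and 0.820% of microglia. The intervals of members (0.544 to 3.19 and 0.650 to 2.67) overlapped those of both classes. Unthinned shares were 8.13% and 4.72% of members, 5.62% and 5.28% of neurons and 6.18% and 3.61% of microglia. Without the members that held 3 or more endothelial genes the log2 ratio of Foxq1 was 0.15, with the thinned gate it was 0.31, and a 3′ count may lie outside the deleted part, so the level in this class does not check the genotype labels. Among 7 subclusters of the members, Foxq1 was among the leading genes of 1, which also led with the endothelial genes Kdr and Cdh5.

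The named markers stood higher in the class than in microglia in both libraries. Mrc1, the mannose receptor, stood at 3237 CPM in Foxq1flox/flox and 2975 CPM in Foxq1iECKO members, against 206 and 204 CPM in microglia. Microglia here are the 647 and 610 kept barcodes with at least 3 pan-macrophage genes, at least 2 of the 3 microglia genes, at most 1 border gene and at most 2 interferon genes. F13a1, the A subunit of coagulation factor XIII, a transglutaminase, stood at 2409 and 2456 CPM, against 6.61 and 21.8 CPM in microglia. Lyve1 was at 794 and 993 CPM and at 0.529 and 1.90 CPM in microglia. Msr1, a scavenger receptor for modified lipoproteins and the 1 marker outside the rule, was at 325 and 256 CPM, against 7.66 and 13.9 CPM in microglia. For each of these 4 genes both member libraries lay above both microglia libraries, which the rule itself arranged for Mrc1, F13a1 and Lyve1.

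**Figure D1:**
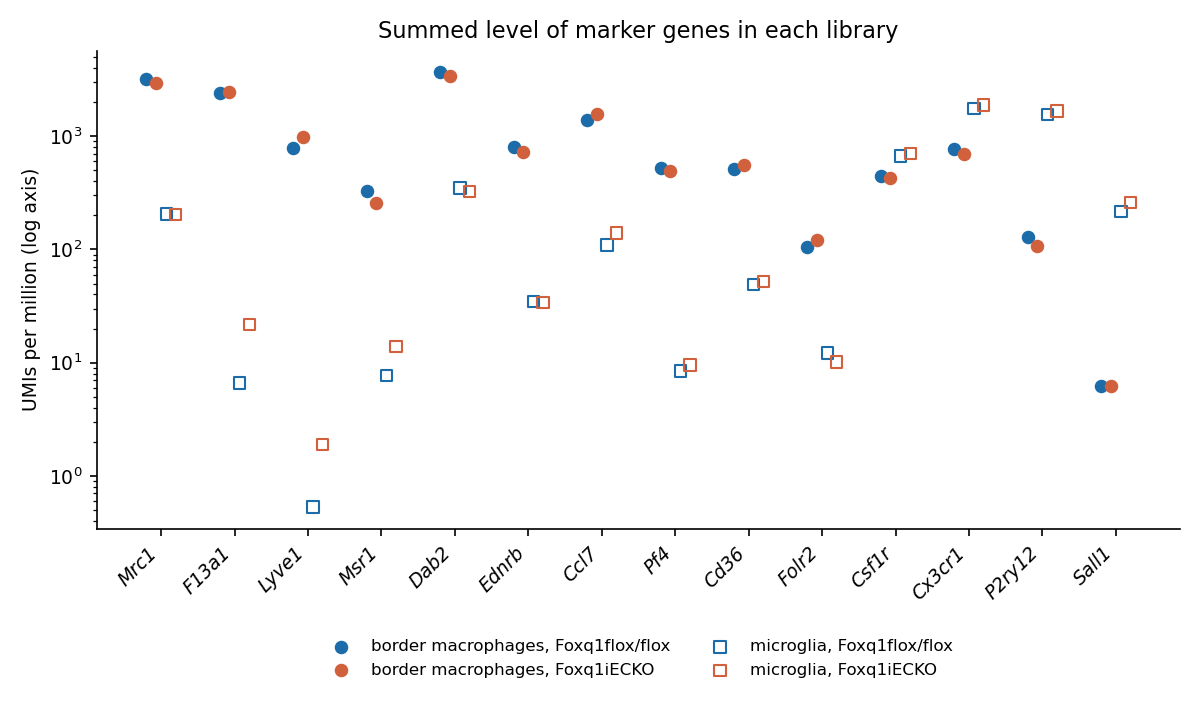
Summed level, in CPM on a log axis, of marker genes in border macrophages (filled circles) and microglia (open squares) of the Foxq1flox/flox (blue) and Foxq1iECKO (orange) libraries; each point is 1 library. The 4 markers of the class and Dab2, Ednrb, Ccl7, Pf4, Cd36 and Folr2 stand higher in border macrophages, P2ry12 and Sall1 in microglia, and the 2 libraries of a class lie close together except for F13a1, Lyve1 and Msr1 in microglia, where all are low.

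Of the 26 further border macrophage markers listed, 22 were measured (10 CPM or more in at least 1 library) and 16 were at least 2-fold higher than in microglia in both libraries. The background for that rule was 275 of 8972 genes at 10 CPM or more higher in border macrophages (3.07%) and 226 lower (2.52%), or 224 (3.19%) and 184 (2.62%) of 7014 genes at 20 CPM or more, and since the rule chose cells by related genes, the counts describe the gates. Dab2, a clathrin adaptor of receptor uptake, was at 3662 and 3412 CPM against 348 and 323 CPM in microglia. Pf4, the chemokine platelet factor 4, was at 521 and 490 CPM against 8.46 and 9.49 CPM, log2 ratios of 5.95 and 5.69. Ednrb, the endothelin receptor type B, stood at 809 and 723 CPM against 34.6 and 34.2 CPM. Folr2, a folate receptor, was at 105 and 120 CPM against 12.2 and 10.1 CPM. Ms4a7 was at 371 and 385 CPM against 66.1 and 71.5 CPM, and Stab1, a scavenger receptor, at 200 and 199 CPM. Blnk, an adaptor protein listed as a border marker, went the other way, with 11.7 and 12.2 CPM in members and 138 CPM in microglia of both libraries. Some listed genes were near 0, named here after their values were seen. Cd163, the haemoglobin scavenger receptor, had 5.46 and 5.41 CPM and a UMI in 2.71% and 2.20% of members, and Cbr2 had 0.390 and 0.541 CPM. The class II gene H2-Aa was at 8.19 and 4.06 CPM, with UMIs in 3 and 8 cells.

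Scavenger and uptake receptors, a list that also holds the rule genes Mrc1 and Lyve1, had 12 of 18 measured at least 2-fold higher than in microglia and 1 lower in both libraries. Cd36, a receptor for fatty acids and oxidised lipids, was at 518 and 556 CPM against 49.2 and 52.2 CPM. Of C-type lectins named by the ranking against microglia, Clec4a1 was at 174 and 164 CPM against 6.87 and 8.86 CPM, Clec10a at 44.5 and 47.3 CPM against 0.529 and 1.27 CPM, and Clec4e (Mincle) at 106 and 108 CPM against 5.81 and 5.06 CPM in microglia. Chemokines and cytokines divided between the classes. Of 25 measured, 8 were higher in border macrophages and 2 in microglia. Ccl7, a monocyte attractant, was at 1393 and 1566 CPM against 109 and 139 CPM. Cxcl1, a neutrophil attractant, stood at 483 and 585 CPM against 65.3 and 57.9 CPM, and Ccl24, an eotaxin, at 81.2 and 70.1 CPM against 2.91 and 2.85 CPM. Il1a, the cytokine interleukin 1 alpha, was higher in microglia, at 954 and 1044 CPM against 165 and 182 CPM, as was Csf1, a ligand of Csf1r, at 312 and 253 CPM against 78.4 and 69.8 CPM.

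Genes of the interferon response also stood higher in border macrophages, although the rule removed cells of both gates with more than 2 of its 4 interferon genes. Of 32 measured genes outside the rule, 19 were at least 2-fold higher than in microglia in both libraries and none was lower. Ifi203 and Mndal, interferon-inducible DNA sensors of the same family, were at 78.4 and 85.8 CPM against 5.55 and 7.28 CPM and at 161 CPM in both libraries against 18.8 and 19.0 CPM. After thinning, 61.3% and 62.7% of members held at least 3 UMIs of the list, against 28.6% and 38.4% of microglia. Cxcl10, an interferon-induced chemokine, was at 2070 and 1893 CPM in members and 1207 and 1692 CPM in microglia, short of 2-fold. Lysosomal genes leaned to microglia, with 1 of 29 measured higher in border macrophages and 4 higher in microglia. Complement genes split 3 and 3 of 10, lipid-handling genes 3 and 2 of 14, iron and haem genes 2 and 0 of 16, and transcription factors 3 and 3 of 32. Genes of antigen presentation (0 of 9), S phase (0 of 40) and G2 and M phase (0 of 54) held no gene past 2-fold in either direction. Of members, 44.6% and 44.7% held at least 3 thinned S-phase UMIs and 56.7% and 59.8% at least 3 G2 and M UMIs, against 38.3% and 37.5% and 50.7% and 53.3% of microglia. Of vessel growth and matrix factors, 2 of 27 were higher in border macrophages and 3 in microglia. Of the Tgfb and Csf1 axis, 0 of 20 were higher in border macrophages and 5 in microglia. The aryl hydrocarbon receptor response had 1 of 6 higher, the NRF2 and glutathione response 1 of 15 lower, and immediate early and heat shock genes 1 of 30 lower in border macrophages. Monocyte and neutrophil markers had 2 of 5 higher in border macrophages and 0 in microglia, with Ccr2 at 76.9 and 65.7 CPM against 10.3 and 7.91 CPM. A part of monocyte-like cells in the class was not tested. Erythroid genes, chiefly globins, had 5 of 6 higher in border macrophages, summing to 262 and 219 CPM against 47.0 and 29.4 CPM in microglia. The 1 measured megakaryocyte marker, Ppbp, was higher too, at 18.3 and 11.6 CPM against 0.529 and 0.633 CPM. The part of RNA from red cells or platelets in these levels, and in that of Pf4, was not tested.

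Microglial identity genes were low in the members. Of 21 further microglia markers measured, 18 were at least 2-fold higher in microglia in both libraries and none in border macrophages. Sall1, a transcription factor of microglial identity, was at 6.24 and 6.22 CPM against 217 and 261 CPM. Serpine2, a protease inhibitor, was at 20.7 and 27.3 CPM against 568 and 566 CPM. Itgax was at 0.390 and 0.812 CPM against 29.3 and 46.2 CPM, and Slc2a5, a fructose transporter, at 3.12 and 4.06 CPM against 68.2 and 70.6 CPM. Npnt, Havcr2, Olfml3 and Arsb were lower in members too, with log2 ratios from -3.27 (Arsb) to -4.19 (Npnt) in the Foxq1flox/flox library. P2ry12, a purine receptor and 1 of the 3 microglia genes of the rule, had a UMI in 48.5% and 38.7% of members at full depth and in 13.1% and 11.02% after thinning, against 75.4% and 76.4% of thinned microglia. Cx3cr1, the fractalkine receptor, was shared to a large extent, with 776 and 699 CPM in members and 1751 and 1883 CPM in microglia. Of 20 further pan-macrophage genes none was 2-fold higher in border macrophages and 3 were in microglia, among them Ctss at 1285 and 1080 CPM against 4751 and 4902 CPM.

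Cells near the limits of the rule were many, since single UMIs decide it. Exactly 2 of the 3 border genes were held by 203 and 248 members, and 142 and 174 barcodes failed by holding 1. Of the members, 246 and 331 held 1 microglia gene, and 79 and 139 barcodes failed by holding 2 of them. Exactly 3 pan-macrophage genes were held by 149 and 265 members, and 61 and 116 barcodes failed with 2. Exactly 2 interferon genes were held by 24 and 62 members, and 21 and 70 barcodes failed with 3. Depth enters each of these counts.

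Of the 4 markers, Lyve1 varied most between members. Cells that held F13a1 and Mrc1 without Lyve1 numbered 190 and 238, all 3 genes were held by 203 and 387, Mrc1 and Lyve1 without F13a1 by 12 and 10, and F13a1 and Lyve1 without Mrc1 by 1 and 0. Per cell, Lyve1 had a median of 1.29 UMIs per 10000 in the Foxq1flox/flox members, with quartiles of 0 and 12.8 and a highest value of 78.2, and a median of 4.16 in the Foxq1iECKO members, with quartiles of 0 and 17.1 and a highest value of 63.7. Its coefficient of variation was 1.61 and 1.28, against 0.661 and 0.642 for Mrc1, 0.761 and 0.684 for F13a1 and 1.09 and 1.21 for Msr1. At 1000 UMIs per cell, Lyve1 was detected in 35.0% (interval 30.3 to 39.8) and 40.9% (37.1 to 44.9) of members, F13a1 in 75.9% and 84.3%, Mrc1 in 85.2% and 87.6% and Msr1 in 26.6% and 19.5%. Thinned microglia held Lyve1 in 0.155% and 0.164% of cells and thinned neurons in 0.0472% and 0.391%; since Lyve1 is a gene of the rule, the gates set much of this contrast. Full-depth shares of members with Lyve1 were 53.2% and 62.5%.

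Members with a Lyve1 UMI after thinning (142 of 406 and 260 of 635) were set beside the members without one. This ranking was chosen after values had been seen, the cells were split on a measured gene, and no test was made. Cells with or without Lyve1 here means this split on thinned UMIs, while the levels use all UMIs. Lyve1 itself thus stood at 141 and 236 CPM in the cells without and at 2225 and 2130 CPM in the cells with it. Of 7120 genes measured, 83 were at least 1.5-fold higher in cells with Lyve1 in both libraries (1.17%) and 144 were lower (2.02%). Ednrb stood at 1500 CPM in cells with Lyve1 and 494 CPM in cells without in the Foxq1flox/flox library, and at 1110 and 466 CPM in the Foxq1iECKO library. Folr2 stood at 214 and 55.1 CPM and at 182 and 79.3 CPM in the same order, and Pf4 at 825 and 383 CPM and at 706 and 347 CPM. Dab2, Colec12 (a collectin scavenger receptor), Gas6 (a ligand of TAM receptors, which act in uptake of dying cells), Timd4 (a phosphatidylserine receptor) and Stab1 were also higher with Lyve1 in both. The other border macrophage markers thus had 9 of 23 higher and none lower, with median log2 ratios of 0.57 and 0.38 against -0.07 and -0.02 over all measured genes. In this split genes of a list were counted from 10 CPM, and the 7120 genes of the background from 20 CPM. The rule genes Mrc1 and F13a1 were higher too, by 1.01 and 0.73 and by 1.04 and 0.80 on the log2 scale. Msr1 did not follow Lyve1, with log2 ratios of 0.04 (interval -0.17 to 0.26) and -0.06 (-0.25 to 0.13).

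Genes lower in cells with Lyve1 included 2 of 5 measured monocyte and neutrophil markers. Ccr2, the receptor by which monocytes leave the blood, stood at 109 CPM in cells without Lyve1 and 6.22 CPM in cells with it in the Foxq1flox/flox library, and at 107 and 4.06 CPM in the Foxq1iECKO library. Ms4a4c stood at 30.7 and 3.73 CPM and at 36.1 and 1.35 CPM, and Clec12a, an inhibitory lectin of myeloid cells, at 79.0 and 14.9 CPM and at 47.8 and 13.5 CPM. Cybb, the catalytic subunit of the phagocyte NADPH oxidase, Mpeg1, perforin-2, and the anti-apoptotic genes Bcl2a1a, Bcl2a1b and Bcl2a1d were lower with Lyve1 in both libraries. Ly6c2, the defining gene of classical monocytes, stayed at 5.41 CPM or less in each of the 4 sums, and Plac8, another myeloid gene of that list, was lower with Lyve1, by -1.24 and -1.08 on the log2 scale. Immediate early and heat shock genes leaned the other way, with 4 of 30 higher with Lyve1. Among them Jun had log2 ratios of 1.55 and 0.86 and Hspa1a of 2.64 and 0.81, so the size differed between libraries. Markers of fibroblasts (3 of 10), cartilage (3 of 9) and endothelium (2 of 9) were lower with Lyve1 in both libraries as well, and none was higher. Median depth was 5451.5 and 4969 UMIs in cells with and 5926 and 5311 in cells without a Lyve1 UMI. The part of depth and of other cells' RNA in the split was not tested.

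**Figure D2:**
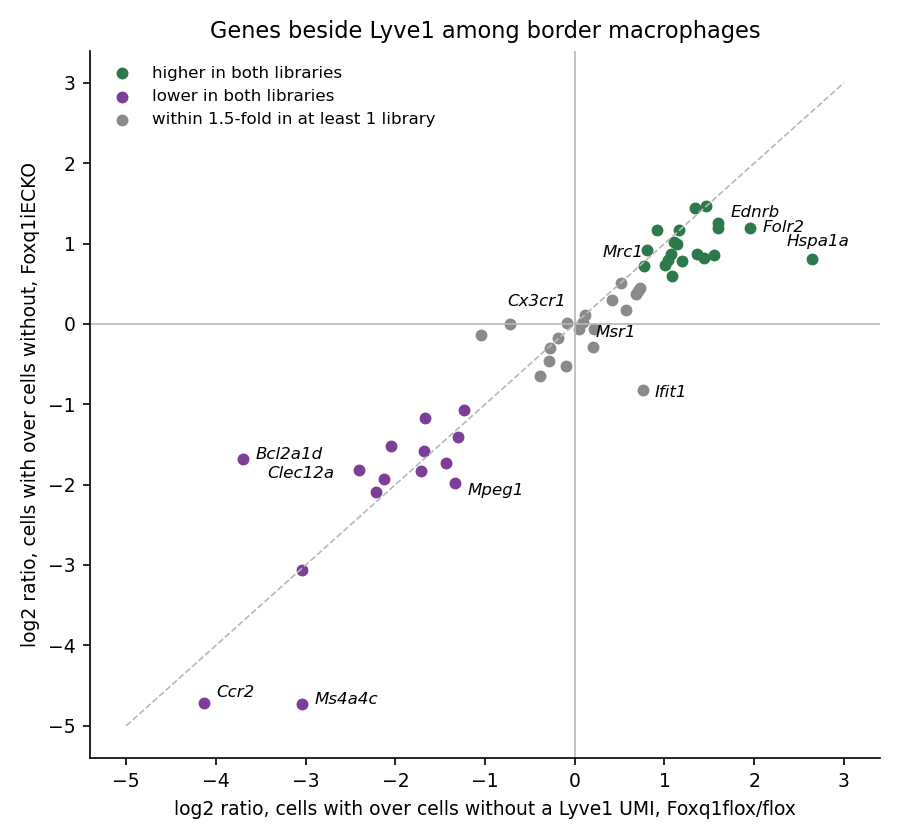
Log2 ratio of level in border macrophages with over those without a Lyve1 UMI after thinning, in Foxq1flox/flox (x axis) and Foxq1iECKO (y axis), for the ranked and listed genes at 20 CPM or more with UMIs in all 4 sums; the dashed line marks equal ratios. Coloured genes lie past 1.5-fold in the same direction in both libraries. The ranked ones were chosen for their ratios, and others, such as Mrc1 and F13a1, were listed. Ifit1 is grey though past 1.5-fold in both libraries, at 0.76 and -0.83, since its directions differ. Ednrb and Folr2 lie high and Ccr2 lies at the lower left, at -4.13 and -4.72, while Msr1 lies near 0.

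Clustering of the members on 1000 variable genes, without the genes of the rule, gave 7 subclusters, numbered here and described by their leading genes. Subcluster 1 (105 and 161 cells) led with the division genes Mki67, Top2a, Prc1 and Ccnb1. Subcluster 2 (106 and 107 cells) led with the immediate early genes Jun, Egr1, Fos and Klf2 and had 1420 CPM of Lyve1 and 4941 CPM of Mrc1. Subcluster 3 (73 and 136 cells) led with Hmox1 (haem oxygenase), Lgals3 (galectin 3), Lpl (lipoprotein lipase) and Srxn1 (sulfiredoxin), with 728 CPM of Lyve1. Subcluster 4 (62 and 115 cells) led with the inflammatory genes Cxcl3, Cxcl1, Il1a, Ccl7 and Areg, with Ccl7 at 4233 CPM against 1041 CPM in other members. S100a8 and S100a9 ranked highest there, but 1 of 177 cells gave every S100a8 UMI and 98.2% of S100a9 UMIs. Ccr2 was at 8.99 CPM in subcluster 4 and at 122, 58.5 and 96.9 CPM in subclusters 1, 2 and 3.

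The other 3 subclusters led with genes of other tissues: subcluster 5 (102 cells) with Col1a1, Col1a2 and Col3a1, subcluster 6 (38 cells) with Neurod6 and Dcx, and subcluster 7 (36 cells) with Igfbp7, Rgs5, Kdr and Cdh5. In them 99.02%, 92.1% and 94.4% of cells held 4 or more markers of another class, against 3.35% to 8.27% in subclusters 1 to 4. Their median depths, 8833, 7127.5 and 10213.5 UMIs, lay above the 4051 to 6948 UMIs of the others. Subcluster 2 made up 26.1% (interval 21.9 to 30.7) of Foxq1flox/flox and 16.9% (14.0 to 19.99) of Foxq1iECKO members, and 31.2% and 20.4% of members without markers of another class. Intervals of the 2 libraries overlapped for subclusters 1 (25.9% and 25.4%), 3 (18.0% and 21.4%) and 4 (15.3% and 18.1%). Over all members 0 of 29 measured genes of the immediate early and heat shock list were called between libraries, with a median log2 ratio of -0.08 and Egr1 at 1086 and 894 CPM.

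**Figure D3:**
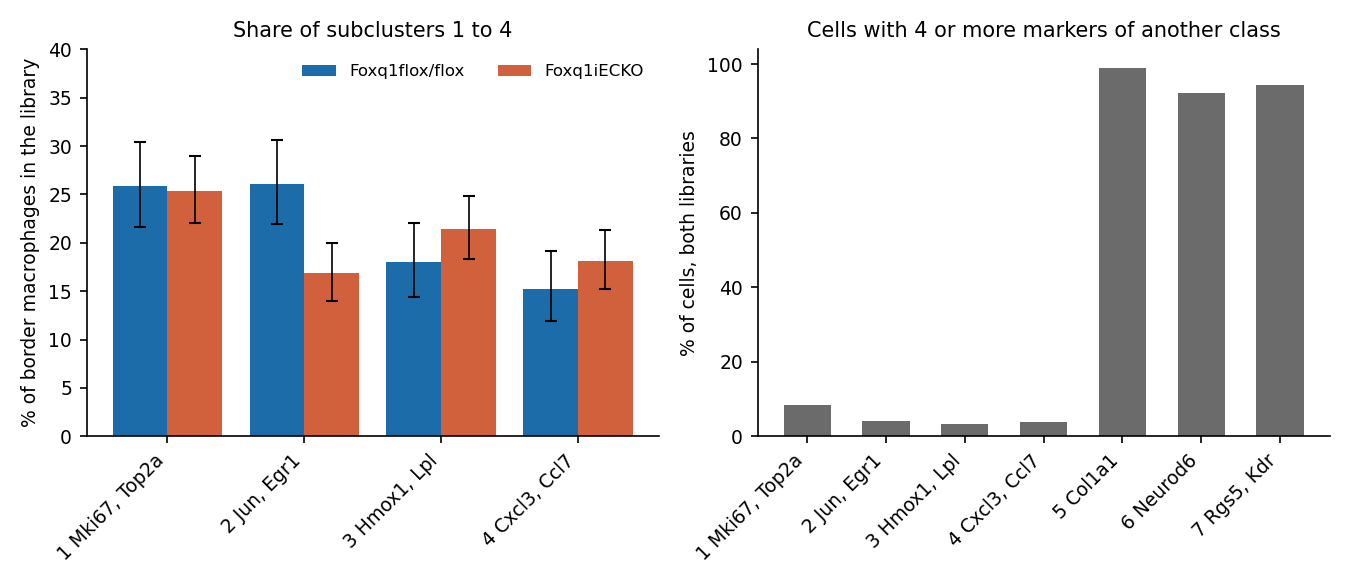
Left, share of each library's border macrophages in subclusters 1 to 4 (blue Foxq1flox/flox, orange Foxq1iECKO; bars are shares with exact 95% binomial intervals). Right, share of the cells of each of the 7 subclusters, both libraries together, with 4 or more marker genes of another cell class: subclusters 5 to 7 stand above 90% and subclusters 1 to 4 below 10%.

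Border macrophages took a larger share of the Foxq1iECKO library. They were 406 of 13933 kept barcodes in Foxq1flox/flox, 2.91% (interval 2.64 to 3.21), and 635 of 13108 in Foxq1iECKO, 4.84% (4.48 to 5.23). Microglia were 4.64% (4.30 to 5.01) and 4.65% (4.30 to 5.03), so the share of border macrophages among the 2 classes together was 38.6% (35.6 to 41.6) and 51.0% (48.2 to 53.8). With the gate applied after thinning every barcode to 1000 UMIs, which removes depth from the rule, the shares of kept barcodes were 0.746% and 1.43% and the shares of the 2 classes together 48.1% (41.3 to 55.0) and 63.4% (57.6 to 68.9). Without members that held 4 or more markers of another class the shares of kept barcodes were 2.35% and 3.81%. The rise was not confined to this class. All macrophages (at least 3 of the 6 pan-macrophage genes) were 10.7% (10.2 to 11.2) and 15.04% (14.4 to 15.7) of kept barcodes. Of these, 227 and 295 held at most 1 border and at most 1 microglia gene. A further 98 and 157 held 2 or more of both, and 112 and 274 macrophages held 3 or 4 interferon genes. Members were 27.2% and 32.2% of macrophages, with intervals that did not overlap. These are shares of what CD31 beads retained from 1 dissection per genotype, and a change in cells, in dissection of the meninges or in bead capture cannot be told apart.

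The interferon limit of the rule removed unequal numbers of cells from the 2 libraries. Among barcodes that met the rest of the border rule, 53 of 459 in Foxq1flox/flox held 3 or 4 of the interferon genes, 11.5% (interval 8.77 to 14.8), and 183 of 818 in Foxq1iECKO, 22.4% (19.6 to 25.4). All 4 genes were held by 32 and 113 of these cells, and none by 314 and 419. For the microglia gate 3 or 4 genes were held by 24 of 671 (3.58%) and 36 of 646 (5.57%, interval 3.93 to 7.63). After thinning, 2 or more of the 4 genes were held by 10.2% (7.62 to 13.4) and 18.7% (16.1 to 21.5) of the border gate and by 3.58% and 4.64% of the microglia gate. With the whole gate set on thinned cells, 3 or 4 genes were held by 8 of 112 (7.14%, 3.13 to 13.6) and 18 of 205 (8.78%, 5.29 to 13.5) border cells, whose intervals overlap. Whether the 2 gates differ in this step between libraries was not tested.

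**Figure D4:**
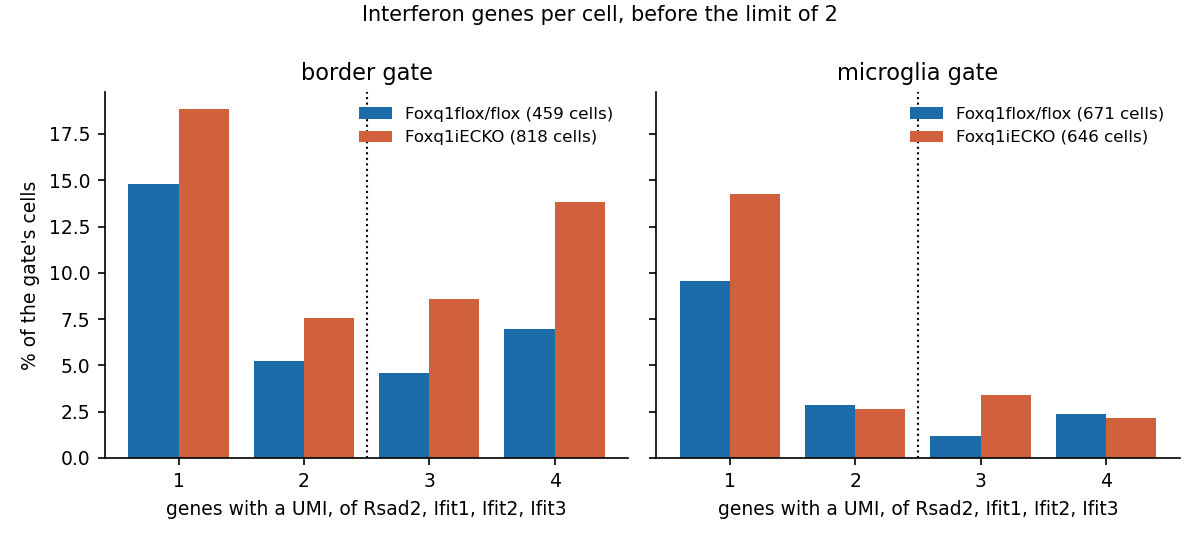
Percent of cells with a UMI for 1, 2, 3 or 4 of Rsad2, Ifit1, Ifit2 and Ifit3 in the border gate (left) and the microglia gate (right), before the limit on these genes; blue Foxq1flox/flox, orange Foxq1iECKO, cell numbers in the keys. Cells right of the dotted line are left out by the rule; in the border gate they are 11.5% and 22.4% of cells.

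Interferon-response levels between libraries depended on that limit. In the members, 2 of 32 measured genes of the list outside the rule were higher in Foxq1iECKO, Igtp (15.6 and 23.5 CPM) and Phf11d (7.41 and 16.0 CPM), none was lower, and the median log2 ratio was 0.04. With no limit on interferon genes, 11 of 36 measured were higher and none lower, with a median of 0.40, beside a median of -0.01 over all genes at 10 CPM or more. The background in that wider gate was 392 of 8563 genes higher (4.58%) and 167 lower (1.95%) at the same minimum of 10 CPM, and 227 (3.39%) and 85 (1.27%) of 6699 genes at 20 CPM. Usp18, the brake on interferon receptor signalling, stood at 18.4 and 38.9 CPM, Oasl2 at 79.4 and 139 CPM, Slfn5 at 178 and 318 CPM and the GTPase Irgm1 at 109 and 182 CPM. Rsad2, which with the other 3 genes set the limit, stood at 663 and 1200 CPM without it and at 86.2 and 114 CPM with it. Within the left-out cells Rsad2 stood at 4644 and 4441 CPM, Ifit1 at 1504 and 1705 CPM and Cxcl10 at 8583 and 8984 CPM. These cells were chosen by Rsad2 and the Ifit genes, so the levels of those genes in them are a description only. For microglia without the limit, 11 of 27 measured genes were higher and none lower, with a median of 0.55, beside a background of 2.66% higher and 1.59% lower. With the thinned gate the median in members was 0.41, and without members that held markers of another class 0.17.

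The log2 ratio of Foxq1iECKO over Foxq1flox/flox was -0.12 (interval -0.16 to -0.08) for Mrc1, 0.03 (-0.02 to 0.07) for F13a1, 0.32 (0.24 to 0.40) for Lyve1 and -0.35 (-0.48 to -0.21) for Msr1. None reached 1.5-fold. The direction for Lyve1 and F13a1 depended on the gate: with the gate applied after thinning (104 and 187 cells) Lyve1 was at -0.14 and F13a1 at -0.095, and with all 3 border genes and no microglia gene F13a1 was at -0.13. Lyve1 was at 0.12 without members that held 4 or more markers of another class. Of 22 other border macrophage markers measured none was higher and 1 was lower, Ms4a4a with 45.7 and 28.1 CPM, and the median log2 ratio was -0.08. Of 6730 genes measured, 234 were higher (3.48%) and 107 lower (1.59%) in the Foxq1iECKO members, with a median log2 ratio of -0.01 over all of them.

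Most of the genes called higher were genes of other cell types. Of the 234, 173 were more than 5 times higher in another gated class than in border macrophages, most often in neurons (68), fibroblasts (30) or cartilage (29), against 20 of the 107 called lower. Of all 6730 genes measured, 598 were more than 5 times higher in another gated class. Of the markers of those classes measured in the members, 7 of 9 for neurons, 6 of 10 for fibroblasts, 4 of 5 for mast cells, 4 of 6 for radial glia and 3 of 3 for mural cells were higher, and 5 of 9 endothelial markers were lower. The fibroblast marker Twist2 was lower, at 37.5 and 20.8 CPM. Over all 8647 genes at 10 CPM or more, 4.65% were higher and 2.14% lower. Erythroid markers had 2 of 6 higher and 2 lower, cartilage 1 of 8 higher and 2 lower, monocyte and neutrophil 3 of 5 higher, lymphatic 0 of 5 called, and the 1 measured megakaryocyte marker was lower. The monocyte and neutrophil genes called were S100a8, S100a9 and Vcan. In subcluster 4, 1 cell gave every S100a8 UMI, and 1 cell gave 72.7% of all S100a9 UMIs of the Foxq1iECKO members. Vcan was a leading gene of subcluster 5, beside Col1a1. Ccr2 (76.9 and 65.7 CPM) and Plac8 (43.3 and 62.0 CPM) were not called. The summed level of neuron markers was 145 and 293 CPM, of fibroblast markers 945 and 2064 CPM, of mast cell markers 65.2 and 222 CPM, of radial glia markers 282 and 413 CPM and of mural markers 110 and 233 CPM. Endothelial markers summed to 437 and 283 CPM, erythroid to 262 and 219 CPM, cartilage to 255 and 249 CPM, lymphatic to 102 and 128 CPM, monocyte and neutrophil to 221 and 368 CPM, and megakaryocyte markers to 24.2 and 16.8 CPM. The part of these cells' RNA in the genotype counts was not tested. The mast cell genes Mcpt4 and Ms4a2 and the radial glia gene Hes5 were at 0 in the Foxq1flox/flox members, Mcpt4 and the mural gene Myh11 in the Foxq1iECKO members, the neutrophil genes Ly6g and Elane in both, and no neuron, fibroblast or endothelial marker was at 0 in either. In microglia fibroblast markers summed to 589 and 992 CPM, mast cell markers to 72.9 and 174 CPM and neuron markers to 206 and 152 CPM. In alternatives chosen after seeing the data, 61 genes were higher and 87 lower of 6132 without genes more than 5 times higher in another class. Without the members that held 4 or more markers of another class, 117 were higher and 123 lower, and with both restrictions 96 and 119.

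**Figure D5:**
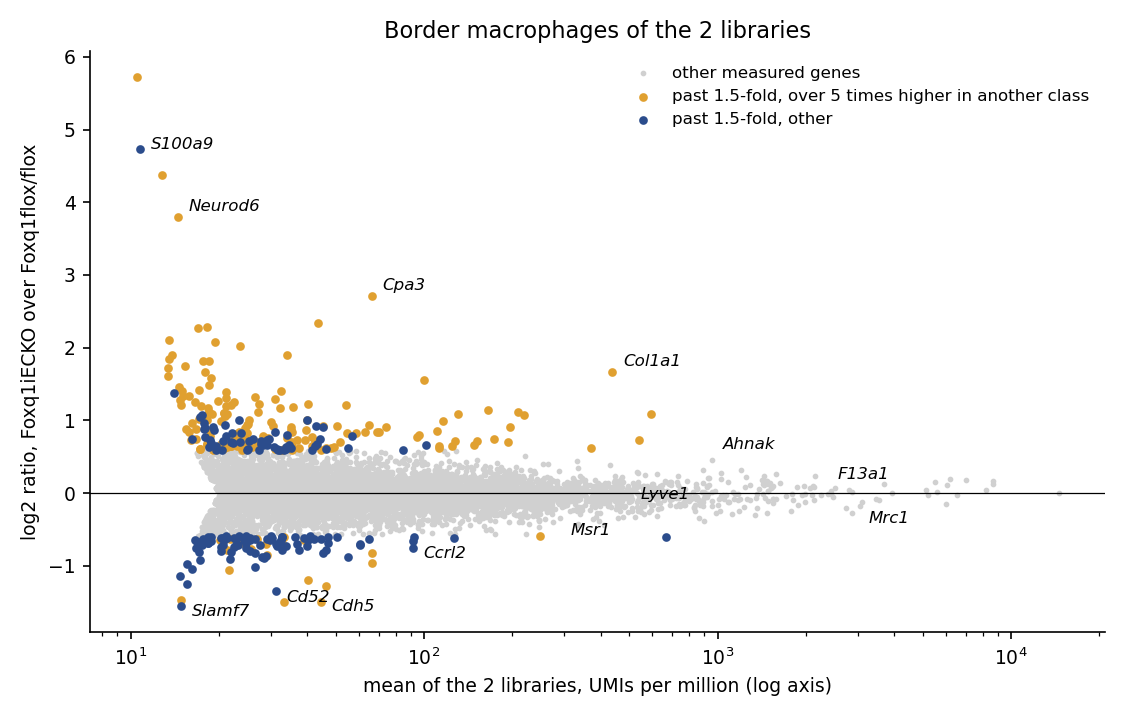
Log2 ratio of Foxq1iECKO over Foxq1flox/flox against the mean level of the 2 libraries (CPM, log axis) for genes at 20 CPM or more in border macrophages. Genes past 1.5-fold are orange where more than 5 times higher in another cell class and blue otherwise; most genes called higher are orange, and Mrc1, F13a1, Lyve1 and Msr1 lie within 1.5-fold. Genes with no UMI in 1 library are not drawn.

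Among genes that were not more than 5 times higher in another class, the higher ones were mostly of low level and of mixed roles. That filter used classes of at least 100 cells in a library. Monocytes and neutrophils (37 and 36 cells) and megakaryocytes (58 and 42 cells) thus did not enter it. Erythroid cells (158 and 97 cells) entered it in the Foxq1flox/flox library only. Atpaf1, an assembly factor of mitochondrial ATP synthase, stood at 26.5 and 53.3 CPM (log2 1.01, interval 0.60 to 1.43), with 14.2% of its Foxq1iECKO UMIs from 1 cell. Malsu1, a mitochondrial ribosome assembly factor, stood at 31.6 and 59.2 CPM in 69 and 162 cells. Ampd3, an AMP deaminase, was at 41.7 and 72.0 CPM, and Irak3, an inhibitor of Toll-like receptor signalling, at 11.3 and 23.8 CPM. Zfp282 was at 11.3 and 23.3 CPM and Nek1, a kinase, at 22.2 and 39.8 CPM. The circadian repressor Per2 was at 7.80 and 20.3 CPM (log2 1.38), but at a log2 ratio of -0.04 with the thinned gate. Pmp22, peripheral myelin protein, was at 78.8 and 124 CPM in members and at 56.6 and 32.0 CPM in microglia. Exoc3l2 was at 14.4 and 27.6 CPM from 12 and 23 cells, and its sign turned with the thinned gate (-0.0034) and the stricter gate (-1.63). With the thinned gate the calls for Malsu1 (0.35), Ampd3 (0.29), Irak3 (0.31) and Nek1 (0.55) ended, and with the stricter gate those for Irak3 (0.37), Pmp22 (0.47), Zfp282 (1.38) and Ifit1 (1.27). Exoc3l2 was at 0.22 with no limit on interferon genes. Without members that held markers of another class Nek1 (0.40) and Per2 (0.80) lost the call. Ifit1, a gene of the rule, was at 33.2 and 55.5 CPM. Ahnak, a large scaffold protein, did not reach 1.5-fold, with 807 and 1109 CPM and a log2 ratio of 0.46 (0.38 to 0.54), and was called with the stricter gate (0.60). S100a9, an alarmin of neutrophils, went from 2 to 77 UMIs, but 3 cells gave the 77 and 1 cell 72.7% of them, and the log2 ratio was -1.45 without members that held markers of another class.

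Of the genes lower in the Foxq1iECKO members, Cd52, a leukocyte surface glycoprotein, was at 44.9 and 17.6 CPM (log2 -1.35, interval -1.81 to -0.90), against 47.0 and 36.1 CPM in microglia. The call for Cd52 ended with the thinned gate (-0.69) and with the stricter gate of all 3 border genes and no microglia gene (-0.63). Slamf7, a receptor of the SLAM family, was at 22.2 and 7.57 CPM, and its log2 ratio was 0.21 with no limit on interferon genes. Ccrl2, a chemokine-binding receptor, was at 115 and 68.2 CPM in 154 and 164 cells, Clec12a at 58.9 and 34.1 CPM, and Lair1, an inhibitory collagen receptor, at 37.1 and 20.02 CPM. Lpar6, a lysophosphatidic acid receptor, was at 112 and 71.2 CPM. Spic, the transcription factor of iron-recycling macrophages, was at 21.9 and 9.20 CPM from 24 and 18 cells, and Dok2, a signalling adaptor, at 35.5 and 17.6 CPM. Ndufv3, Zfp981, Abcg3 and Limk2 were lower by -1.05, -0.88, -0.87 and -1.14 on the log2 scale, Limk2 with 51.9% of its Foxq1flox/flox UMIs from 1 cell. With the thinned gate Ndufv3 (0.021) and Zfp981 (0.40) turned sign, and the calls for Clec12a (-0.42), Lair1 (-0.50) and Limk2 (-0.10) ended. The stricter gate ended the calls for Abcg3 (-0.56) and Dok2 (-0.46), turned Lair1 (0.18), and left Clec12a, Limk2 and Zfp981 at -1.14 with intervals that held no change. Limk2 was at -0.0012 without cells holding an interferon gene, and Ccrl2 at -0.38 with no limit on these genes. Without members that held 4 or more markers of another class the calls for Spic (-0.71), Lpar6 (-0.35) and Abcg3 (-0.56) ended, and Lpar6 was at -0.49 without predicted doublets or without members holding 3 or more endothelial genes. Of these genes, Clec12a was also lower in members with a Lyve1 UMI, and the share of members with a Lyve1 UMI was 35.0% and 40.9% in the 2 libraries. The part of that share in the difference was not tested.

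By group, genes were counted from 10 CPM, where 402 of all 8647 genes were higher (4.65%) and 185 lower (2.14%). Scavenger and uptake receptors had 0 higher and 1 lower of 18 measured, the oxidised lipoprotein receptor Olr1 at 51.1 and 33.0 CPM. Lysosomal genes had 0 of 28 called, complement genes 0 of 8, antigen presentation genes 0 of 9 and pan-macrophage genes outside the rule 0 of 20, the last with a median log2 ratio of -0.23. Of lipid-handling genes 1 of 13 was lower, the nuclear receptor Pparg at 42.1 and 25.4 CPM. Of iron and haem genes 1 of 16 was lower, Spic, with a median of -0.25, the ferritin heavy chain Fth1 at 1023 and 782 CPM and the iron exporter Slc40a1 at 311 and 237 CPM. Further microglia markers had 1 of 13 lower, Ecscr, a gene that endothelium also expresses, and a median of -0.28. Chemokines and cytokines had 1 of 25 lower, Il6 at 12.49 and 6.22 CPM. Of 29 transcription factors measured none was higher, and the median was -0.09. S-phase genes had 1 of 40 lower (Rfc2) and G2 and M genes 2 of 54 (Ckap2 and Cdc25c), and the Tgfb and Csf1 axis had 0 of 20 called.

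Of 26 vessel growth and matrix factors measured, 2 were higher, against 4.65% of all genes at 10 CPM or more, from which nothing is read. They were Vegfa, the main endothelial growth factor, at 19.1 and 28.9 CPM (log2 0.60, interval 0.10 to 1.12), and Spp1, osteopontin, at 67.5 and 101 CPM (0.59, 0.32 to 0.86). In microglia Spp1 went the other way, at 214 and 62.0 CPM, and Vegfa was at 15.6 and 11.7 CPM. The list's median log2 ratio was 0.04, or 0.24 without predicted doublets, 0.31 with the thinned gate and 0.19 with the stricter gate, and Nrp2, a receptor of VEGF and semaphorins, was at 228 and 299 CPM and below 1.5-fold. Of 15 genes of the NRF2 and glutathione response 1 was lower, the cystine transporter Slc7a11 at 34.3 and 20.8 CPM, while Hmox1 was at 1321 and 1552 CPM (0.23). None of the 6 measured genes of the aryl hydrocarbon receptor response was called, with a median of 0.08, or 0.39 without members that held markers of another class and -0.20 with the thinned gate, with Cyp1a1 at 21.9 and 26.2 CPM in members and at 7.93 and 24.1 CPM in microglia, and the receptor Ahr at 26.5 and 25.4 CPM.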

How the data were processed

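UMI counts per gene and barcode were deposited by the authors as 1 matrix per library; per the submitters' processing notes fastp 0.24.0 and STARsolo 2.7.11b were used with mm10. The lowest barcode held 500 UMIs in each deposited matrix, and both libraries together held 30945 barcodes. Whether the counting used strand is not stated in the sources used here. The members and the gene lists were chosen with earlier results of these data known.

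Counts were summed over cells per class and library and scaled to CPM with scipy 1.17.1 in Python 3.11.15. Ratios carry exact conditional binomial 95% intervals and shares exact Clopper-Pearson 95% intervals, which cover counting error only. With 1 library per genotype no spread between embryos was measured and no p-value was computed. The rule of size was checked on simulated counts with known fold changes. Genes of a list were counted from 10 CPM in at least 1 library, and 3 listed genes had no row.

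Genes named by genotype were those whose interval lay farthest from no change, 12 in each direction, without mitochondrial, ribosomal, haemoglobin, sex-linked and unnamed genes and without genes more than 5 times higher in another gated class of at least 100 cells. The same ranking named 15 genes higher and 10 lower beside microglia. Of each list, genes past the size rule and then the most abundant were named. Genes ranked by the Lyve1 split, and H2-Aa, Cd163, Cbr2, Ccr2 and Ctss among others, were chosen after their values were seen.

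Doublets were called with Scrublet in scanpy 1.11.5 at an expected 8% and were removed only as an alternative. Subclusters used 1000 variable genes, 15 components, 15 neighbours and a resolution of 0.5. Thinning drew 1000 UMIs per cell without replacement. Scaling factors of edgeR 4.0.16 and DESeq2 1.42.0 (R 4.3.3) served as alternatives, without their tests. Promoter sequences came from RefSeq (GRCm38.p6) and gene positions from GENCODE vM21; Lyve1, Msr1, Ccl7 and Gpr34 had no promoter entry. Some results are not reported here.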

Additional observations from a re-analysis of the deposited data

Results flagged for a closer look

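Spp1 and Pmp22 moved in opposite directions in border macrophages and microglia of the same libraries. Spp1 had a log2 ratio of 0.59 in border macrophages (67.5 and 101 CPM) and of -1.79 in microglia (214 and 62.0 CPM). Pmp22 had a log2 ratio of 0.66 in border macrophages (78.8 and 124 CPM) and of -0.82 in microglia (56.6 and 32.0 CPM). The difference between the cell types was not tested, since each genotype had 1 library.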

How the results depend on the processing

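The direction of the share of border macrophages, higher in Foxq1iECKO, held under all 9 alternatives run on it. The shares moved to 0.746% and 1.43% with the gate applied after thinning, 0.524% and 1.28% with all 3 border genes and no microglia gene, 3.29% and 6.24% with no limit on interferon genes, 2.25% and 3.20% with no interferon gene, and 5.26% in Foxq1iECKO at 2000 or more UMIs. They were 2.35% and 3.81% without members holding 4 or more markers of another class, an alternative chosen after seeing the data. Of genes between libraries, 207 were lower with the thinned gate, 259 with the stricter gate, 57 were higher and 22 lower at 50 or more CPM, 660 and 308 with no filter on level, and 73 and 12 at 2-fold. In further alternatives chosen after seeing the data, 117 were higher without members holding other markers, 61 without genes more than 5 times higher in another class, and 96 with both. Signs turned for Exoc3l2 (-0.0034), Foxq1 (0.31), Ndufv3 (0.021), Per2 (-0.037) and Zfp981 (0.40) with the thinned gate, Exoc3l2 (-1.63) and Lair1 (0.18) with the stricter gate, Slamf7 (0.21) with no interferon limit, Foxq1 (0.15) without members holding 3 or more endothelial genes, and S100a9 (-1.45) without members holding other markers. The cause was not tested. Scaling by edgeR or DESeq2 factors moved no count by 1.5 times and shifted the median of all genes by 0.0004 and -0.0022 on the log2 scale. Of 156 list medians under alternatives, 135 moved by less than 0.1 on the log2 scale and 21 by more; the interferon-response median was 0.40 with no interferon limit, against 0.04. Of values of single named genes, 300 stayed on their side of the size rule, 32 lost the call in the same direction and 1 newly passed the rule. Below the rule, signs also turned for Lyve1 (-0.14) and F13a1 (-0.095) with the thinned gate and for F13a1 with the stricter gate (-0.13) and as a mean over cells (-0.020). Leaving out a replicate could not be done with 1 library per genotype. No paired analysis was possible because each genotype had 1 library and no test was made. Depth limits the low genes, whose ratios rest on few UMIs.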
